A study of Mus musculus with 6 samples.

Results

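The 51 genes described here are interferon-stimulated genes, chosen by name as antiviral effectors, RNA and DNA sensors, interferon-inducible GTPases and modifier enzymes, out of 54532 genes in the deposited count table. All 51 were found in the table and all 51 passed the expression filter, which kept 14522 genes. Their expression was compared between infarct macrophages of 3 ITGA5 fl/fl and 3 Myα5KO mice, to examine what loss of the α5 integrin chain did to this group of genes.

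Both groups were C57BL/6 mice, 12 weeks old, with a permanently occluded left anterior descending coronary artery, and hearts were taken 7 days after occlusion. The ITGA5 fl/fl mice carried the conditional Itga5 allele on both chromosomes and, by their genotype label, no Cre. Myα5KO mice, their littermates, carried the same floxed alleles plus Cre recombinase expressed from the lysozyme M (Lyz2) promoter. This driver acts in neutrophils and monocytes as well as macrophages, and because the controls lacked Cre, the presence of Cre cannot be told apart from the loss of Itga5. Cells of individual hearts were depleted of Ly6G+ cells and enriched for CD11b+ cells on magnetic columns, so the libraries are a bulk population that can hold any CD11b+ cell not removed by the Ly6G depletion. In such bulk RNA, fewer cells of a type and less RNA per cell cannot be told apart.

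Type I interferons signal through the IFNAR1 and IFNAR2 receptor chains and the kinases JAK1 and TYK2, which activate a transcription factor complex. This complex binds the interferon-stimulated response element (ISRE) in the promoters of its target genes, while interferon gamma acts through the gamma-activated site (GAS). After myocardial infarction, nucleic acids released from dying cells are known to induce type I interferon signalling in macrophages.

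Library totals lay between 15424451 and 18419287 counts, and each knockout total was above every control total. Itga5 fell from 653, 568 and 600 CPM (counts corrected for library size by the TMM method) in ITGA5 fl/fl to 50, 49 and 47.1 CPM in Myα5KO macrophages, with a log2 fold change of -3.64 (edgeR SE 0.08, adjusted p 4.42e-12). The sum of 11 macrophage markers ranged from 11500 to 11600 CPM in ITGA5 fl/fl and from 11100 to 11800 CPM in Myα5KO libraries. Abundant genes such as C1qa, C1qb and Csf1r, none of them called, made up most of it, while Ccr2, Cx3cr1 and Fcgr1 were called higher, with log2 fold changes of 0.58, 0.44 and 0.27.

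Interferon-stimulated genes were, for the most part, modestly higher in Myα5KO infarct macrophages. Of the 51 members, 32 (62.7%) were higher, 2 were lower and 17 were not called by edgeR (adjusted p up to 0.05). The background of the same calls over all 14522 genes tested was 3.56% higher and 5.19% lower. The median log2 fold change of the members was 0.41, against 0.01 over all genes tested, and single members ranged from -0.61 to 0.74. A total of 47 members had a positive fold change. For 35 members all 3 Myα5KO libraries lay above all 3 ITGA5 fl/fl libraries, which was so for 14.9% of all genes tested. For 2 members all Myα5KO libraries lay below the controls (13.8% of all genes tested), and the groups overlapped for the other 14.

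The number of members called depended on single libraries more than the direction did. The count of members called higher was 19 without ITGA5 fl/fl replicate 1, 20 without ITGA5 fl/fl replicate 3 and 16 without Myα5KO replicate 2. On the log2(FPKM + 1) scale, tested with limma, 11 members were higher and 1 was lower. The median log2 fold change lay between 0.35 and 0.49 in all 18 alternative settings. Of the 34 members called in either direction, 17 were called again whichever of the 6 libraries was dropped. Ifi204, Mx2, Dtx3l and Parp14 were called again in 1 of these 6 fits. Oas1a, Oas2, Ifi209, Slfn5, Usp18, Parp9, Gbp3, Irgm1, Ifi47 and, as a lower gene, Trim25 were called in every one of these settings. With scaling by library totals, all genes split into 1212 higher and 518 lower, against 517 and 754 in the edgeR test with TMM, and 38 members were then higher.

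**Figure D1:**
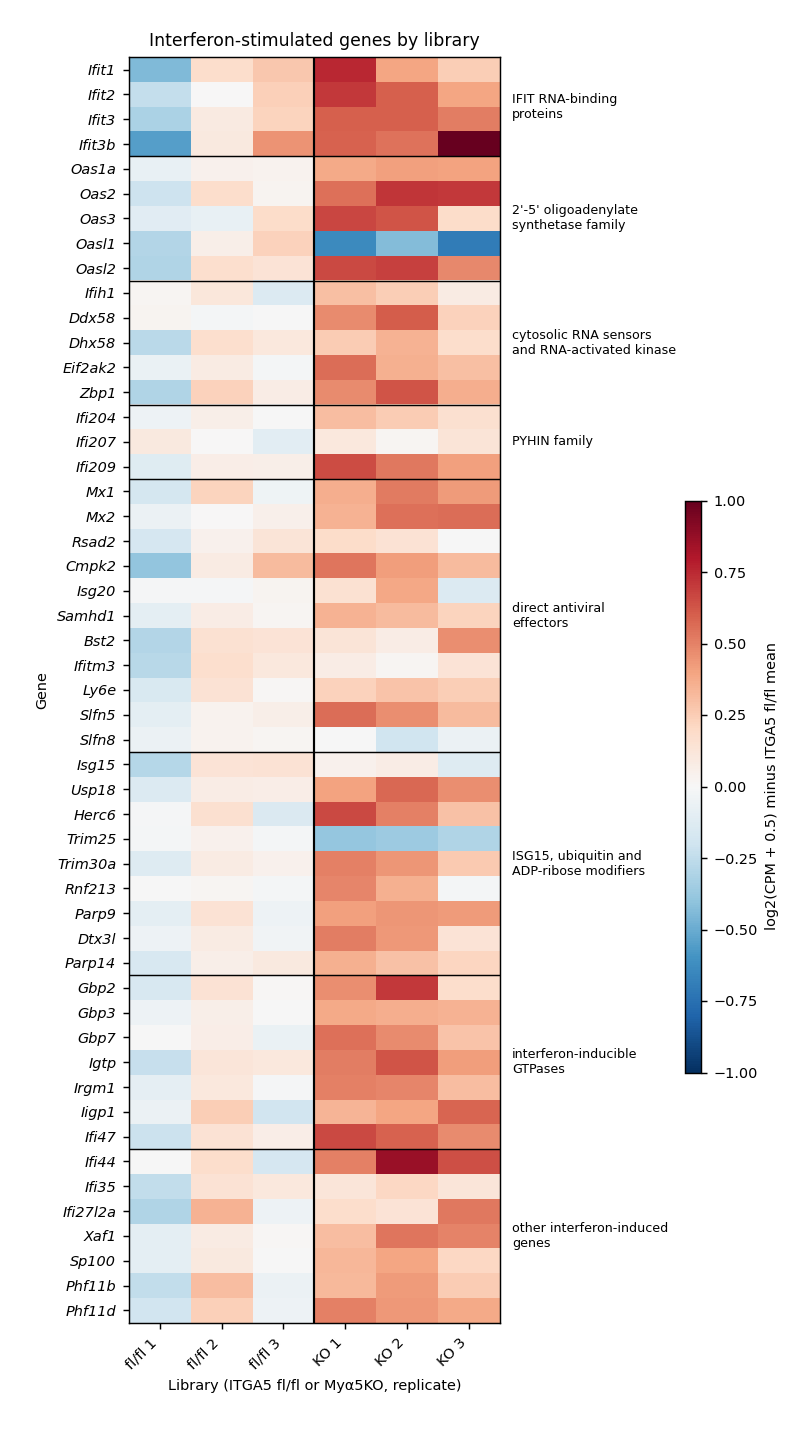
Expression of the 51 interferon-stimulated genes in each of the 6 libraries, as log2(CPM + 0.5) minus the mean of the 3 ITGA5 fl/fl libraries (colour), with genes in rows grouped by role. The Myα5KO columns are mostly red, Oasl1 and Trim25 are blue in all 3, and ITGA5 fl/fl replicate 1 is the lowest control library for 41 of 51 members.

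The libraries within a group differed along a shared pattern. ITGA5 fl/fl replicate 1 was the lowest control library for 41 of the 51 members, and replicate 2 was the highest for 36. Among the knockouts, Myα5KO replicate 3 was lowest for 33 members. The median member, in log2(CPM + 0.5) relative to the control mean, stood at -0.13, 0.09 and 0.02 in ITGA5 fl/fl replicates 1, 2 and 3, and at 0.40, 0.42 and 0.29 in Myα5KO replicates 1, 2 and 3. The median coefficient of variation of the members was 10.5% among control and 7.59% among knockout libraries.

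Promoter sequences were examined because the ISRE is the element through which these genes are known to be induced. RefSeq promoters (GRCm38.p6, 250 bases before to 50 after a start site) matched 39 members. The ISRE core GAAANNGAAA, searched on both strands, occurred in 22 of these 39 members (56.4%) and in 3.99% of all 27025 genes with a promoter in the table (3.44% of 32851 single promoters). It was found in 12 of the 23 matched members called higher, in 10 of the 14 not called and in neither of the 2 called lower. Members with and without the core were thus found both among those called higher and among those not called. The GAS core TTCNNNGAA, which reads the same on both strands, occurred in 10 of the 39 members (25.6%) and in 9.55% of all genes (8.3% of single promoters). Among the 7 members grouped here as interferon-inducible GTPases, all called higher, windows around the core are shown for the 5 in which it was found. A window is also shown for Isg15, which was not called and has 3 overlapping cores. The windows of Ifit3 and Ifit3b are shown because these paralogs carry the same sequence. Ifi47, the gene of this group with the highest fold change, held no core in its matched promoter, and Iigp1 had no matched promoter. Each window is on the gene's own strand, 5′ to 3′, with the cores in capitals. Where the core lies on the opposite strand, the capitals show its reverse complement.
Isg15, chr4:156200860-156200911, minus strand: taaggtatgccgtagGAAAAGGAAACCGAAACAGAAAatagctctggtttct
Ifit3, chr19:34583392-34583431, plus strand: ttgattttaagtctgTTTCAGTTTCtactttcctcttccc
Ifit3b, chr19:34607788-34607827, plus strand: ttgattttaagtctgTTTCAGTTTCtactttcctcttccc
Gbp2, chr3:142620589-142620628, plus strand: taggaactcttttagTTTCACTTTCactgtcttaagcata
Gbp3, chr3:142559984-142560029, plus strand: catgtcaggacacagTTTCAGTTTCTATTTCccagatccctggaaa
Gbp7, chr3:142530268-142530307, plus strand: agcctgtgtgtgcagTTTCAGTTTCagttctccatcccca
Igtp, chr11:58199507-58199546, plus strand: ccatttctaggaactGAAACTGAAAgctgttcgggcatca
Irgm1, chr11:48871421-48871465, minus strand: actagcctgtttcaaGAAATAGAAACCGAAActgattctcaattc
In the windows of Isg15, Gbp2, Gbp3, Gbp7, Igtp and Irgm1 the nearest core lay 56, 49, 29, 43, 24 and 14 bases before the RefSeq start site. The deposited gene coordinates differ from RefSeq at some of these genes. By them the Irgm1 window lies inside the gene, which runs from 48861968 to 48871683. The deposited starts of Gbp2 and Gbp3, at 142620602 and 142560026, fall within their windows. Ifit3 and Ifit3b each held 2 cores, of which the nearer is shown. It lay 112 bases before the start site in Ifit3 and 144 bases in Ifit3b, and the farther core lay at 146 and 178 bases.

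Interferon-inducible GTPases, which attack the membranes of pathogen-containing vacuoles, were the only role group here with every member called higher by edgeR. All 7 were higher, with all Myα5KO libraries above all controls and log2 fold changes from 0.37 to 0.58. Ifi47, an immunity-related GTPase, measured 14.1, 18.2 and 17.2 CPM in ITGA5 fl/fl and 26.2, 24.9 and 23 CPM in Myα5KO replicates 1, 2 and 3, the order used for all values that follow. Its log2 fold change was 0.58 (edgeR SE 0.11, adjusted p 0.00508). Gbp3, a guanylate-binding protein, had 33.4, 36 and 34.5 CPM in control and 45.2, 44.7 and 44.2 CPM in knockout libraries, a log2 fold change of 0.37 (edgeR SE 0.07, adjusted p 0.00618). The spread of Gbp3 within each group was small against the gap between groups. Irgm1, a regulator of the effector GTPases, was at 26.1, 30.1 and 27.6 CPM in ITGA5 fl/fl and 39.8, 39.3 and 34.7 CPM in Myα5KO, and rose by 0.44 on the log2 scale (edgeR SE 0.09, adjusted p 0.00716). Gbp2 measured 25.9, 32 and 29.2 CPM in the controls and 40.1, 47.5 and 32.8 CPM in the knockouts, with a log2 fold change of 0.46 (edgeR SE 0.12, adjusted p 0.0301). Its lowest knockout library was barely above the highest control. The log2 fold changes of Gbp7, Igtp and Iigp1 were 0.45, 0.52 and 0.44. The calls of Ifi47, Gbp3 and Irgm1 held whichever library was dropped. Those of Gbp7 and Igtp held in 5 of the 6 fits, and those of Gbp2 and Iigp1 in 2. On the log2(FPKM + 1) scale, Gbp2, Gbp7, Igtp and Iigp1 were not called. Gbp2, Gbp3 and Gbp7 lie side by side on chromosome 3, between 142530342 and 142638008 (GRCm38). For Igtp 8.01% of the exonic bases overlap Irgm2, for Ifi47 8.77% overlap other genes, and for Gbp7 11.3% overlap a predicted gene, which leaves the origin of those reads uncertain.

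**Figure D2:**
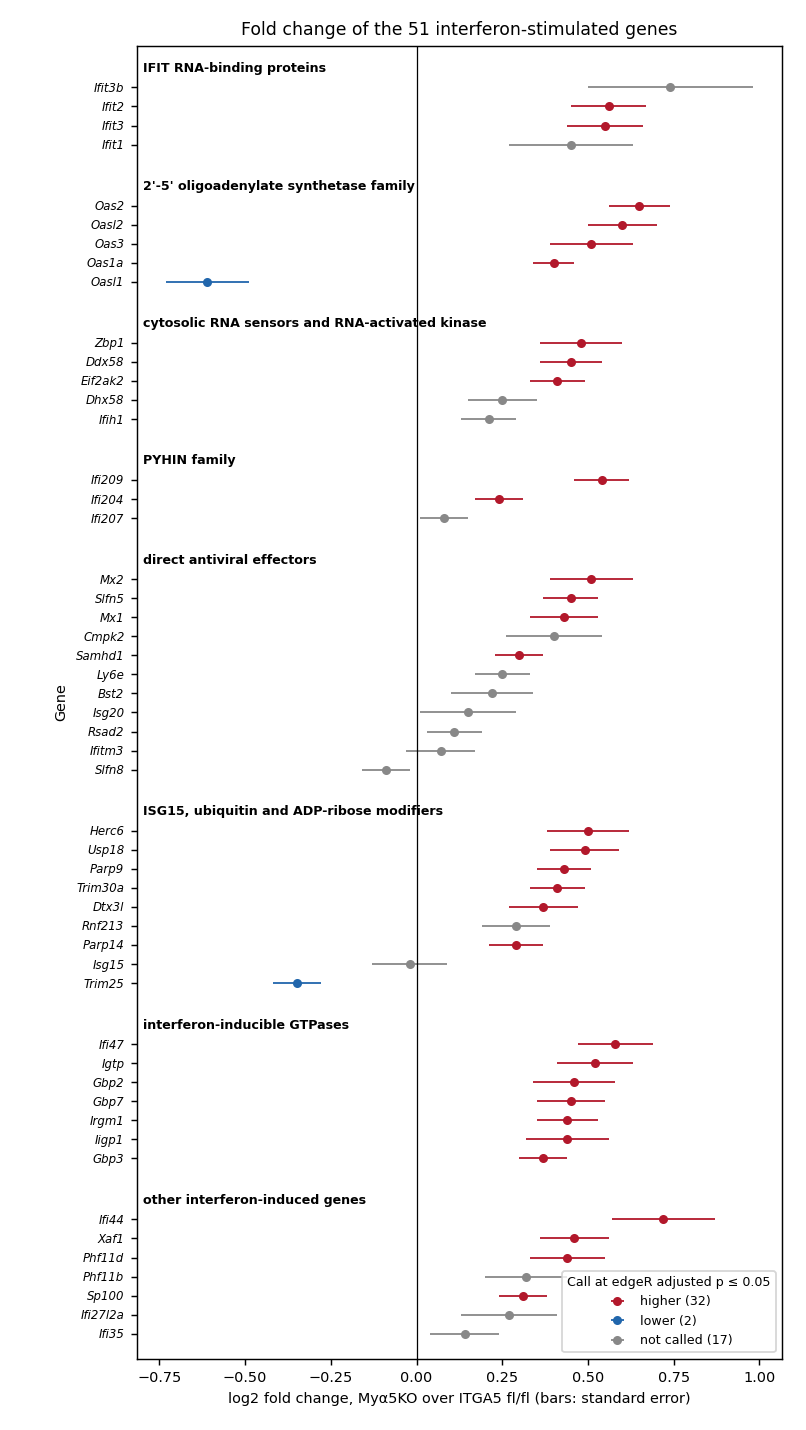
Log2 fold change of each member, Myα5KO over ITGA5 fl/fl (points) with its standard error (bars), by role. All 7 GTPases are called higher, while the direct antiviral effectors hold 7 of the 17 members that were not called, and Oasl1 (-0.61) and Trim25 (-0.35) are the 2 members called lower.

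Oligoadenylate synthetases make a short oligonucleotide signal on double-stranded RNA, which activates RNase L. Of the 5 family members, 4 were higher and 1, Oasl1, was lower. Oas2 measured 48.7, 63.4 and 57.4 CPM in ITGA5 fl/fl and 82.3, 92.7 and 91.9 CPM in Myα5KO macrophages, a log2 fold change of 0.65 (edgeR SE 0.09, adjusted p 0.000825), with the groups well apart. Oas1a was at 58.7, 63.7 and 63.2 CPM in controls and 80.5, 82.3 and 82 CPM in knockouts, rising by 0.40 on the log2 scale (edgeR SE 0.06, adjusted p 0.00221). Of the 150-base words of Oas1a, 32.4% also occur in other genes, Oas1g among them. The log2 fold changes of Oasl2 and Oas3 were 0.60 and 0.51, although Oas3 overlapped between the groups (49.3 CPM in the highest control and 49.2 CPM in the lowest knockout library).

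Oasl1, known to repress translation of Irf7 mRNA, moved the other way (ENSMUSG00000041827, chromosome 5, 114923240 to 114937915, GRCm38). It measured 41.8, 53.3 and 60.3 CPM in ITGA5 fl/fl and 32.7, 37.7 and 31.3 CPM in Myα5KO macrophages. Every knockout library lay below every control. The log2 fold change was -0.61 (edgeR SE 0.12, 95% interval -0.86 to -0.36, adjusted p 0.00595), and the fall did not pass the test on the log2(FPKM + 1) scale. Its neighbour Oasl2, which rose, lies 11005 bases away, so both directions occurred within a single locus.

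IFIT proteins bind viral RNA and block its translation, and their genes form a cluster on chromosome 19 (34550694 to 34650009, GRCm38). All 4 fold changes were positive, with 2 called. Ifit2 measured 30.5, 36.2 and 42.7 CPM in ITGA5 fl/fl and 59.3, 55 and 47.7 CPM in Myα5KO, a log2 fold change of 0.56 (edgeR SE 0.11, adjusted p 0.0074). Ifit3 had 20, 26.6 and 29.3 CPM in control and 38.1, 38 and 35.8 CPM in knockout libraries, with a log2 fold change of 0.55 (edgeR SE 0.11, adjusted p 0.00917). Neither gene overlapped between the groups. Ifit3b, the near-identical paralog, was at 2.14, 3.64 and 4.78 CPM in controls and 5.32, 5.14 and 7.36 CPM in knockouts. Its log2 fold change of 0.74 (SE 0.24) was the highest of all members and did not pass the test (adjusted p 0.0769 by edgeR). Ifit3 shares 18.5% and Ifit3b 16% of their 150-base words with other genes, mainly with each other. Ifit1, the founding member, was not called, with a log2 fold change of 0.45 (95% interval 0.07 to 0.84, edgeR adjusted p 0.141) and overlapping groups.

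Cytosolic sensors detect viral or self RNA and start interferon production. All 5 fold changes were positive and 3 genes were called higher. Ddx58, which encodes RIG-I, measured 46, 44.4 and 45 CPM in ITGA5 fl/fl and 62.9, 68.9 and 53.1 CPM in Myα5KO, a log2 fold change of 0.45 (edgeR SE 0.09, adjusted p 0.00707). The controls were almost equal, and the spread lay in the knockouts. Eif2ak2, encoding the RNA-activated kinase PKR, was at 34.9, 38.8 and 36.1 CPM in controls and 54.2, 47 and 45.1 CPM in knockouts, and rose by 0.41 on the log2 scale (edgeR SE 0.08, adjusted p 0.00855). Zbp1, a sensor of left-handed nucleic acids, had a log2 fold change of 0.48. Dhx58, encoding the RIG-I-like receptor LGP2, measured 27.7, 37.6 and 36 CPM in control and 40, 42.8 and 37.8 CPM in knockout libraries. The groups of Dhx58 lay only just apart and the difference did not pass the test (log2 fold change 0.25, 95% interval 0.02 to 0.47, edgeR adjusted p 0.168). Ifih1, which encodes MDA5, had a log2 fold change of 0.21 and an edgeR adjusted p of 0.137.

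PYHIN proteins bind DNA and regulate transcription of inflammatory genes, and 2 of the 3 members were called. Ifi209 measured 39.3, 44.8 and 44.7 CPM in ITGA5 fl/fl and 67.8, 62 and 57.1 CPM in Myα5KO, with a log2 fold change of 0.54 (edgeR SE 0.08, adjusted p 0.00156). Ifi204, a DNA sensor, was at 128, 138 and 132 CPM in controls and 164, 158 and 148 CPM in knockouts, a smaller rise of 0.24 on the log2 scale (edgeR SE 0.07, adjusted p 0.0374). The knockout libraries lay above the controls by a narrow margin. Ifi207, the family member with the highest level (87.4 FPKM in ITGA5 fl/fl and 92.2 FPKM in Myα5KO, a per-length scale), measured 321, 301 and 278 CPM in controls and 323, 304 and 327 CPM in knockouts. Its groups overlapped, and the log2 fold change of 0.08 had a 95% interval of -0.07 to 0.24 (edgeR adjusted p 0.529). The 3 genes are neighbours on chromosome 1 (173630917 to 173766943, GRCm38). Words of 150 bases shared with other genes made up 6.77% of Ifi204 and 9.28% of Ifi209.

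Direct antiviral effectors act on viral entry, replication or release. Of 11 members, 4 were higher and 7 were not called, and the median log2 fold change was 0.25. Slfn5, a Schlafen family member, was at 140, 153 and 156 CPM in ITGA5 fl/fl and 220, 206 and 186 CPM in Myα5KO, a log2 fold change of 0.45 (edgeR SE 0.08, adjusted p 0.00308). Mx1, of the dynamin-like GTPases, measured 18.8, 24.9 and 20.6 CPM in controls and 27.6, 30.8 and 28.7 CPM in knockouts. Its log2 fold change was 0.43 (edgeR SE 0.10, adjusted p 0.0208). Mx2, the neighbour of Mx1 on chromosome 16, is annotated as a polymorphic pseudogene. It had 7.44, 7.81 and 8.08 CPM in control and 10, 11.6 and 11.7 CPM in knockout libraries. Its RNA rose by 0.51 on the log2 scale (edgeR SE 0.12, adjusted p 0.0189). The groups did not overlap for any of these genes. Samhd1, which degrades deoxynucleotides, had a log2 fold change of 0.30 and was also called.

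The effectors with the highest levels per length did not pass the test. Ifitm3, which blocks entry of viruses from endosomes, had the highest level per length of all 51 members, with a mean of 366 FPKM in ITGA5 fl/fl and 381 FPKM in Myα5KO macrophages. It measured 204, 277 and 266 CPM in controls and 260, 250 and 272 CPM in knockouts, a log2 fold change of 0.07 (95% interval -0.14 to 0.27, edgeR adjusted p 0.74) that turned to -0.06 without ITGA5 fl/fl replicate 1. Bst2, or tetherin, which holds budding virions at the cell surface and also marks plasmacytoid dendritic cells, had 107, 146 and 144 CPM in controls and 143, 138 and 181 CPM in knockouts. The groups of both genes overlapped, with ITGA5 fl/fl replicate 1 well below the other libraries. For Bst2 the log2 fold change was 0.22 (95% interval -0.04 to 0.47, edgeR adjusted p 0.303). Rsad2, which encodes viperin, and Isg20, an exonuclease, had log2 fold changes of 0.11 and 0.15, and that of Slfn8 was -0.09. Cmpk2 and Ly6e, at 0.40 and 0.25 (edgeR adjusted p 0.0978 and 0.0666), were not called although all their knockout libraries lay above the controls.

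ISG15 is a ubiquitin-like protein that is attached to other proteins, and it is often used as a single marker of interferon signalling. Isg15 itself (chromosome 4, 156199424 to 156200818, minus strand, GRCm38) did not pass the test. It was at 36.8, 49.6 and 49.9 CPM in ITGA5 fl/fl and 46.3, 47.3 and 41.1 CPM in Myα5KO macrophages. All knockout libraries lay within the control range. The log2 fold change was -0.02 (edgeR SE 0.11, 95% interval -0.25 to 0.21, adjusted p 0.937), and it was 0.06 with scaling by library totals.

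Of the 9 genes of ISG15, ubiquitin and ADP-ribose modification, 6 were higher and 1 was lower. Usp18, which removes ISG15 from proteins and restrains the interferon receptor, measured 12.3, 14.3 and 14.2 CPM in ITGA5 fl/fl and 18.1, 20.5 and 18.9 CPM in Myα5KO, a log2 fold change of 0.49 (edgeR SE 0.10, adjusted p 0.00956). Herc6, the mouse ISG15 ligase, rose by 0.50 on the log2 scale, with 8.69% of its 150-base words shared with other genes. Parp9, an ADP-ribosyltransferase family member that works with the ligase encoded by Dtx3l, was at 34.1, 40.6 and 35.4 CPM in controls and 48.8, 49.9 and 49.2 CPM in knockouts, with a log2 fold change of 0.43 (edgeR SE 0.08, adjusted p 0.00501). The knockout libraries agreed closely and lay above every control. The log2 fold changes of Dtx3l, Parp14 and Trim30a were 0.37, 0.29 and 0.41, all called. Parp9 and Dtx3l overlap by 458 exonic bases on opposite strands, and reads there cannot be assigned without strand. Rnf213, a giant ubiquitin ligase, had 391, 398 and 387 CPM in ITGA5 fl/fl and 549, 501 and 387 CPM in Myα5KO libraries. It was high in 2 knockout libraries and at control level in the third, and was not called (0.29 on the log2 scale at an edgeR adjusted p of 0.103), although it passed the test without Myα5KO replicate 3.

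Trim25, the ubiquitin ligase known to act on RIG-I, was the other member that fell (ENSMUSG00000000275, chromosome 11, 88999376 to 89020293, GRCm38). It measured 785, 817 and 783 CPM in ITGA5 fl/fl and 609, 619 and 644 CPM in Myα5KO macrophages. The groups lay far apart compared with their spread. The log2 fold change was -0.35 (edgeR SE 0.07, 95% interval -0.49 to -0.21, adjusted p 0.00584), and the gene was called lower in all 18 alternative settings.

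The remaining members include genes of varied or poorly known function, of which 4 of 7 were higher. Ifi44 measured 4.96, 5.7 and 4.38 CPM in ITGA5 fl/fl and 7.29, 9.47 and 8.10 CPM in Myα5KO, with a log2 fold change of 0.72 (edgeR SE 0.15, adjusted p 0.0112), from the lowest level per length of all members. Xaf1, which promotes apoptosis by binding XIAP, was at 15.3, 17.4 and 16.5 CPM in controls and 20.4, 23.9 and 23.3 CPM in knockouts, a log2 fold change of 0.46 (edgeR SE 0.10, adjusted p 0.0113). Neither gene overlapped between the groups. Sp100, a nuclear body protein gene, and Phf11d had log2 fold changes of 0.31 and 0.44 and were called. Ifi27l2a, which had the highest level per length of this group (274 FPKM in ITGA5 fl/fl and 330 FPKM in Myα5KO), measured 102, 160 and 121 CPM in control and 142, 138 and 181 CPM in knockout libraries. The groups overlapped and the log2 fold change of 0.27 (95% interval -0.02 to 0.57, edgeR adjusted p 0.257) was not called. The log2 fold changes of Phf11b and Ifi35 were 0.32 and 0.14.

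The members were also split by level per length. Among the 10 members with the highest mean FPKM (34.7 to 374), 3 were higher, 1 was lower and 6 were not called, with a median log2 fold change of 0.23. Among the other 41 members (1.08 to 29.6 FPKM), 29 were higher, 1 was lower and 11 were not called, with a median log2 fold change of 0.44. Over all genes tested, 3.18% were higher in the same upper range of levels and 3.6% below it. This difference between members was described and not tested.

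**Figure D3:**
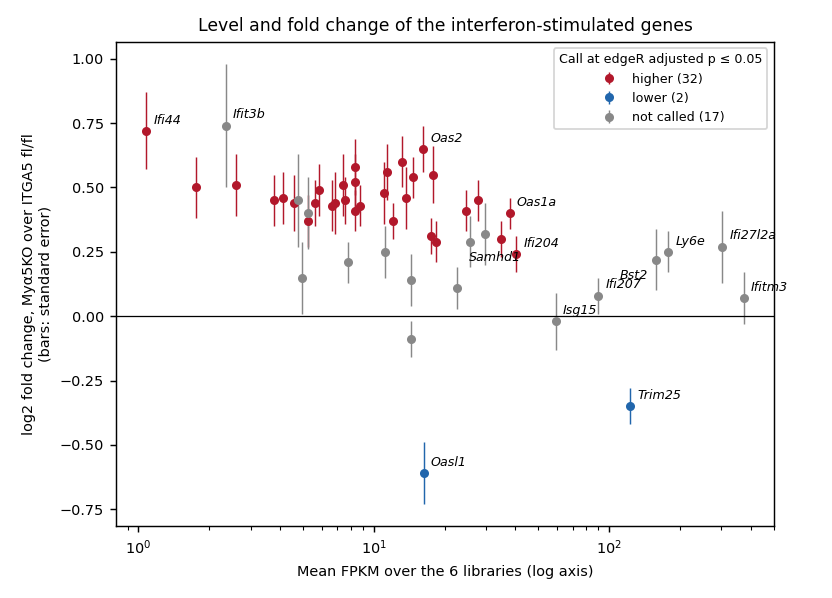
Mean FPKM of each member over the 6 libraries (log axis) against its log2 fold change, Myα5KO over ITGA5 fl/fl (bars, standard error), coloured by call. Ifitm3, Ifi27l2a, Ly6e and Bst2, at the right, were not called, and most members called higher lie between 1 and 30 FPKM.

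Many members are neighbours in the genome. A total of 28 members lay within 500000 bases of another member, in 11 clusters. All members were called higher in the clusters of Gbp genes, of Oas2, Oas3 and Oas1a, of Parp14, Dtx3l and Parp9, of Mx1 and Mx2, and of Irgm1 and Ifi47. Neither Rsad2 nor Cmpk2, which lie 12751 bases apart on chromosome 12, was called. Calls differed within the clusters of Ifi209, Ifi207 and Ifi204, of Slfn5 and Slfn8, and of Phf11b and Phf11d. They also differed within the 4 Ifit genes and between Oasl2 and Oasl1. Of all 51 members 62.7% were called higher, and whether neighbours moved together was not tested.

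Interferon ligands were barely detected. Of 21 ligand genes listed, 5 had a count in any library and none passed the expression filter. Ifnb1, the first type I interferon made after sensing, had 4, 12 and 7 counts in ITGA5 fl/fl and 2, 2 and 10 counts in Myα5KO libraries. Ifng, made mainly by T and NK cells, had 4, 9 and 10 counts in controls and 5, 6 and 11 counts in knockouts. Ifnk had 4, 1 and 2 counts in controls and 1, 2 and 0 counts in knockouts, and Ifna13 and Ifnz had 1 count each in a single library. With no count filter, edgeR gave none of the 5 genes an unadjusted p under 0.05 (log2 fold changes of -0.88 for Ifnb1 and -0.23 for Ifng, with adjusted p of 0.602 and 0.884). A difference in ligand RNA was not detectable at these counts.

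None of the 5 interferon receptor genes was called. Ifnar1, which encodes a chain of the type I receptor, measured 331, 297 and 311 CPM in ITGA5 fl/fl and 280, 294 and 264 CPM in Myα5KO, a log2 fold change of -0.17 (95% interval -0.32 to -0.01, edgeR adjusted p 0.171). Ifnar2, the other chain, was at 192, 194 and 182 CPM in controls and 164, 175 and 162 CPM in knockouts, with a log2 fold change of -0.18 (95% interval -0.32 to -0.04, edgeR adjusted p 0.101). Every knockout library lay below every control for both chains, without passing the test. The interferon gamma receptor genes Ifngr1 and Ifngr2 had log2 fold changes of 0.06 and -0.03. Ifnlr1, the interferon lambda receptor, was near the limit of detection at 0.341 to 0.639 CPM, and was not called (0.41 on the log2 scale at an edgeR adjusted p of 0.595).

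Of 13 kinase, STAT and IRF genes of the pathway, 6 were higher and 2 were lower, against 3.56% and 5.19% of all genes tested. Irf7, a transcription factor that amplifies type I interferon production and is itself induced by it, measured 113, 128 and 117 CPM in ITGA5 fl/fl and 160, 168 and 161 CPM in Myα5KO, a log2 fold change of 0.45 (edgeR SE 0.07, adjusted p 0.00142). Stat2 had 58.2, 64.6 and 60.7 CPM in control and 72, 79.7 and 73.3 CPM in knockout libraries, a log2 fold change of 0.29 (edgeR SE 0.07, adjusted p 0.0194). Both genes lay higher in every knockout library. Irf9 measured 49.7, 51.9 and 51.5 CPM in controls and 57.4, 62.3 and 63.2 CPM in knockouts, with a log2 fold change of 0.26 (edgeR SE 0.07, adjusted p 0.0306). Its groups did not overlap. The call of Irf7 held whichever library was dropped, that of Stat2 in 3 and that of Irf9 in 1 of the 6 fits. Tyk2 and Irf2 had log2 fold changes of 0.23 and 0.28. Irf1, an interferon-responsive transcription factor, had 123, 138 and 132 CPM in controls and 113, 149 and 175 CPM in knockouts, overlapped and was not called (0.15 on the log2 scale at an edgeR adjusted p of 0.499).

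The lower genes of this list were Jak2 and Stat3. Jak2, a kinase of the interferon gamma receptor and of many cytokine receptors, fell from 266, 228 and 237 CPM to 167, 167 and 134 CPM (-0.64 on the log2 scale, edgeR SE 0.09, adjusted p 0.00104). Stat3, activated by interleukins such as IL-6 and IL-10, had a log2 fold change of -0.27 and was called lower.

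**Figure D4:**
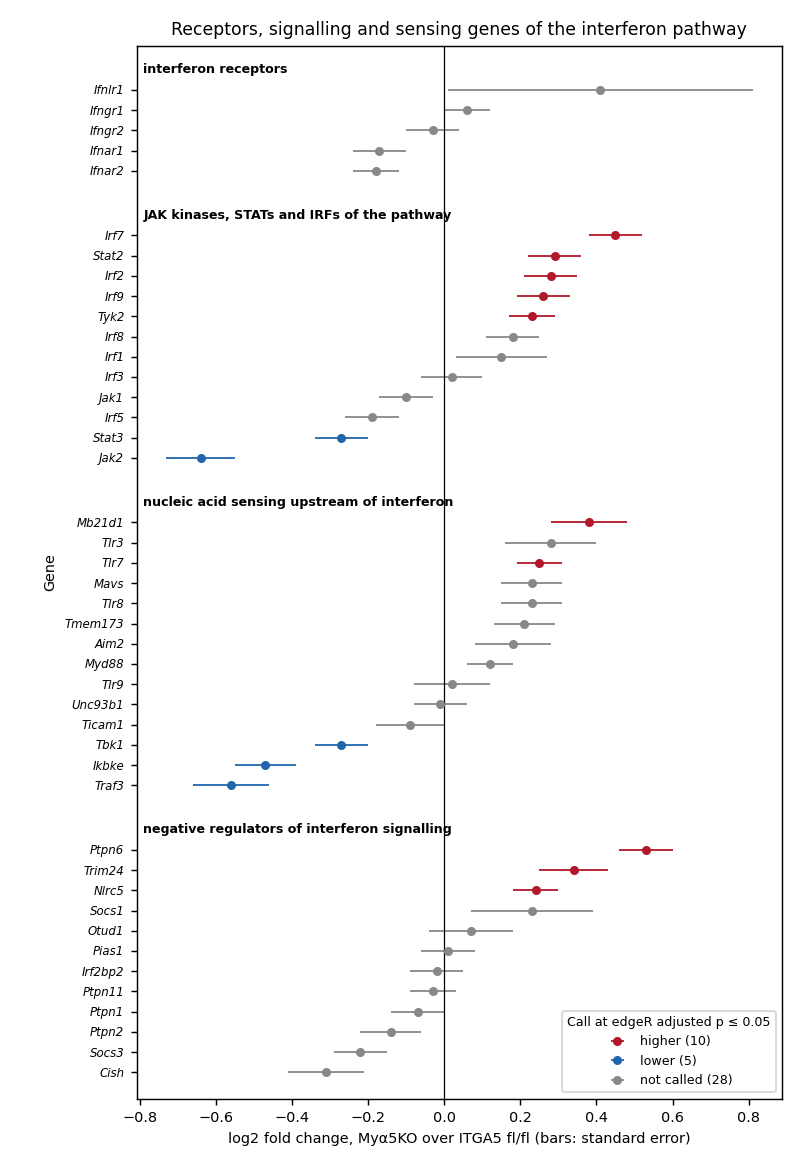
Log2 fold change, Myα5KO over ITGA5 fl/fl, of tested genes of the receptor, signalling, sensing and negative regulator lists (points) with standard errors (bars). None of the 5 receptors was called, Stat2, Irf9 and Irf7 were higher, and Jak2, Stat3, Traf3, Ikbke and Tbk1 were lower.

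Genes of nucleic acid sensing upstream of interferon went in both directions, with 2 of 14 higher and 3 lower. Mb21d1, encoding the DNA sensor cGAS, and Tlr7, an endosomal receptor for single-stranded RNA, had log2 fold changes of 0.38 and 0.25. Tbk1 and Ikbke, the kinases that activate IRF3, and Traf3, the adaptor that recruits them, had log2 fold changes of -0.27, -0.47 and -0.56. Each of these 3 genes was lower in every Myα5KO library. Of 12 negative regulators, 3 were higher and none was lower, namely the phosphatase gene Ptpn6 (0.53), Trim24 (0.34) and Nlrc5 (0.24). Socs1, a feedback inhibitor of JAK kinases, measured 5.50, 6.28 and 5.18 CPM in ITGA5 fl/fl and 5.54, 7.38 and 6.99 CPM in Myα5KO and was not called (0.23 on the log2 scale at an edgeR adjusted p of 0.407).

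Genes outside the 51 that respond strongly to interferon gamma were called higher in 10 of 20 cases and lower in 1. The chemokine genes Cxcl9 and Cxcl10, whose products attract T cells, had log2 fold changes of 0.98 and 0.39. Cxcl9 measured 9.18, 12 and 9.33 CPM in ITGA5 fl/fl and 13.4, 31.6 and 15.4 CPM in Myα5KO. Its high value rested on Myα5KO replicate 2, without which the log2 fold change was 0.50 and was not called (edgeR adjusted p 0.0643). Ciita, the regulator of class II antigen presentation, rose by 0.68 on the log2 scale. The proteasome and peptide transport genes Psmb8, Psmb10 and Tap1 rose by 0.26, 0.27 and 0.31. The GTPase genes Gbp4, Gbp8, Gbp9 and Irgm2 rose by 0.46, 0.76, 0.45 and 0.54. Their relatives Gbp5, Gbp6, Tgtp1 and Tgtp2 were not called, with log2 fold changes of 0.23, 0.19, 0.06 and 0.55. Cd274, which encodes the checkpoint ligand PD-L1, fell from 149, 165 and 164 CPM in ITGA5 fl/fl to 85.8, 96.2 and 86.6 CPM in Myα5KO macrophages (-0.83 on the log2 scale, edgeR SE 0.07, adjusted p 2.81e-05). Its groups lay far apart, in the direction opposite to the 10 genes of the list that were called higher.

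Over all 7 lists of pathway genes outside the 51, 36 of 104 tested genes (34.6%) were higher and 7 were lower, with a median log2 fold change of 0.23. Over all genes tested, 3.56% were higher and 5.19% were lower, which is the background for each of these lists. As for the members, these counts depended on single libraries, since 17 pathway genes were higher without ITGA5 fl/fl replicate 1, ITGA5 fl/fl replicate 3 or Myα5KO replicate 2. On the log2(FPKM + 1) scale 12 were higher and 4 were lower.

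Marker genes of other cell types were summed in the same libraries. The summed level of 11 neutrophil markers ranged from 41.9 to 66.8 CPM in ITGA5 fl/fl and from 89.1 to 208 CPM in Myα5KO libraries, while Ly6g, the antigen used for depletion, was at most 0.107 CPM. Of the 9 neutrophil markers tested, 7 were called higher, among them the granule protein genes Ltf, Camp and Ngp with log2 fold changes of 2.05, 1.89 and 1.85. Mmp8 and Retnlg were not called, with log2 fold changes of 0.47 and -0.65, and Ly6g and Cxcr2 were too low to be tested. Non-classical monocyte markers (6 genes) summed to 1290 to 1440 CPM in controls and 1620 to 1890 CPM in knockouts. Most of this difference came from Nr4a1 (a mean of 1030 CPM in controls and 1380 CPM in knockouts), Spn and Adgre4 were also called higher, and Cd300ld and Treml4 had log2 fold changes of -0.15 and -0.03. Ccr2, the receptor that brings blood monocytes to the infarct, was at 156, 190 and 158 CPM in ITGA5 fl/fl and 234, 256 and 262 CPM in Myα5KO. The sum of 10 T and NK cell markers was 27.3 to 29 CPM in controls and 31.9 to 34.2 CPM in knockouts. Most of it came from Cd4 (means of 19.3 and 20.9 CPM). None of the 5 tested T and NK cell markers was called, and all 5 fold changes were positive. These 3 sums, like the fibroblast sum (8 genes, 1620 to 1900 against 1210 to 1580 CPM) and the cardiomyocyte sum (8 genes, 18.8 to 22.0 against 12.4 to 16.2 CPM), did not overlap between groups. The exact two-sided permutation p of each was 0.1, the smallest that 3 against 3 libraries can give (0.2 after adjustment over 10 lists). The sum of 9 plasmacytoid dendritic cell markers was 227 to 252 CPM in controls and 209 to 232 CPM in knockouts (exact permutation p 0.3), most of it from Tcf4 (means of 195 and 172 CPM). Its defining markers were low, with Siglech at 0.911 to 2.41 CPM over all libraries and Klk1 at 0 in 4 of 6. Of the 8 tested, Pacsin1 and Spib were called higher, with log2 fold changes of 1.43 and 0.58, and none was called lower. Conventional dendritic cell (8 genes, 103 to 140 against 134 to 143 CPM), B cell (8 genes, 74.9 to 118 against 116 to 189 CPM) and endothelial markers (7 genes, 297 to 321 against 311 to 359 CPM) overlapped. Which sums separated depended on the scaling. With library totals, the fibroblast sum overlapped (1580 to 1840 against 1250 to 1630 CPM, exact permutation p 0.2). The conventional dendritic cell (100 to 135 against 138 to 146 CPM) and B cell sums (72.4 to 114 against 118 to 195 CPM) then did not overlap. Nor did the endothelial (288 to 314 against 321 to 371 CPM) and macrophage sums (11100 to 11400 against 11500 to 12000 CPM). The part of any of these cell types in the difference between the members' levels was not tested.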

How the data were processed

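The deposited files hold RNA-seq data of 6 libraries. Per the labels and the study's methods, the authors made polyA libraries with the NEBNext Ultra kit and sequenced read pairs of 150 bases. The reads were filtered, aligned to GRCm38 with TopHat2 2.0.9 and counted per gene with HTSeq 0.6.1, and the submitters' processing notes also name Cufflinks 2.1.1. The deposited counts are whole, unnormalized reads per gene. The authors' deposited FPKM values equal the count divided by gene length and a library constant proportional to the DESeq2 size factor. Handling of strand and multi-mapped reads is not given in the sources used here.

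Differential expression was tested in R 4.3.3 with edgeR 4.0.16 (quasi-likelihood F test, TMM, minimum count 10, minimum total count 15), with Benjamini-Hochberg adjustment over all 14522 genes and calls at an adjusted p of 0.05 or less. The study names DESeq2, which was run as an alternative (1.42.0) besides limma 3.58.1. Intervals come from the moderated standard error. Marker sums were compared by exact permutation. Reads were amplified and carry no molecular identifiers, and replicate libraries differed beyond sampling noise (chi-square per degree of freedom 5.59 to 14.8). Each library came from 1 heart.

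The members, role groups and lists were chosen with earlier results of these data known. Named with all values were, in each role group, the 2 members with the smallest p and the 1 with the highest FPKM, every member called lower, and Isg15, Mx1, Ifit3b and Bst2. Usp18, Stat2, Irf7, Irf9, Irf1, Socs1, the receptors and the ligands were named by the same rule, and other called genes by fold change. The values per library of Irgm1, Rnf213, Jak2, Cd274, Cxcl9 and Ccr2, and the single markers, were added after they were seen. One gene of the signalling list is counted but not reported here. On data simulated for 14522 genes, edgeR recovered 58% of genes changed 1.5-fold and 76% of those changed 2-fold, and 3.11% of its 161 calls were false. The simulation drew each gene independently, without the pattern that the members shared across libraries. Its smallest change, 1.5-fold, was larger than the median change of the members. Recovery and false calls were thus not measured for changes like theirs. Shared words and exon overlaps came from GENCODE M21.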

Additional observations from a re-analysis of the deposited data

How the results depend on the processing

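Alternatives were DESeq2, limma-voom, limma on log2(FPKM + 1) and log2(FPKM + 0.1), other scalings, other count filters, a replicate block, an adjusted p of 0.01 and each library left out, plus thinning to equal depth, chosen after seeing the data. Between 11 and 39 members were called higher and 1 or 2 lower. On log2(FPKM + 1) and log2(FPKM + 0.1), limma called 11 and 11 members higher and 1 and 1 lower, 150 and 142 of all genes higher and 322 and 306 lower, and 12 and 12 pathway genes higher and 4 and 3 lower. At an adjusted p of 0.01 the counts were 15 members higher, 128 genes higher and 342 lower, and 15 pathway genes higher. With no count filter 798 genes rose, and with scaling by library totals 1212 were (518 lower, 70.1% higher among calls against 40.7%).

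With single libraries left out, members higher ranged from 16 to 31, all genes higher from 187 to 420 and lower from 429 to 671, pathway genes higher from 17 to 34 and lower from 5 to 7, and the members' median log2 fold change from 0.35 to 0.46. Isg15 ranged from -0.15 to 0.05 and Ifitm3 from -0.06 to 0.15, and Isg15 was 0.06 with library totals. The macrophage marker difference of -52.7 CPM became 593 CPM with library totals. Of 468 values of named members, 412 kept direction and call, 45 lost the call, 6 gained it and 5 changed sign.

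Both groups share the replicate numbers in the labels, which do not say what the numbers stand for. Deviations of same-numbered libraries from their group means correlated at 0.052, -0.075 and 0.041 over all genes tested. So few libraries cannot show whether the samples were paired. With the replicate block 33 members were higher and 2 lower, and Ifit3b was called (log2 fold change 0.77, edgeR adjusted p 0.0348). The cause of these changes was not tested. The interferon ligands had at most 12 counts in a library and were tested only without a count filter, where none was called.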

Other observations

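Close relatives of the 51 genes, left out of the member list, were examined as well. Of 40 tested, 15 were higher and 1 was lower, with a median log2 fold change of 0.32, against backgrounds of 3.56% higher and 5.19% lower over all genes. Ddx60, an RNA helicase gene related to the RIG-I-like receptors, measured 23.6, 22.7 and 20.9 CPM in ITGA5 fl/fl and 37.3, 39.1 and 34.3 CPM in Myα5KO macrophages (0.72 on the log2 scale, edgeR SE 0.09, adjusted p 0.000278). Among relatives of the PYHIN family, Ifi206, Ifi213 and Mndal had log2 fold changes of 0.71, 0.50 and 0.26, and Oas1g had one of 0.50. The Trim genes Trim5, Trim12c, Trim21, Trim30d and Trim34a rose by 0.52, 0.49, 0.59, 0.50 and 0.59 on the log2 scale, and Parp12 by 0.46. The call of Trim5 was lost whichever library was left out. Ly6c2, which marks inflammatory monocytes, and Ly6a had log2 fold changes of 0.71 and 0.36.

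The Schlafen family was split. Slfn1 and Slfn9 were higher, with log2 fold changes of 0.58 and 0.94, as was Slfn5 among the members. Slfn2, required for quiescence of immune cells, fell from 639, 694 and 770 CPM in ITGA5 fl/fl to 472, 516 and 483 CPM in Myα5KO macrophages, a log2 fold change of -0.52 (edgeR SE 0.08, adjusted p 0.00161). Every knockout library lay below every control.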
